A study of Mus musculus with 18 samples.

Results

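Pou5f1, Sox2 and Nanog, the 3 core transcription factor genes of pluripotency, were followed peak by peak in 12 histone mark libraries of mouse embryonic stem cells. They were taken by name, 3 of 21883 protein-coding genes, and each was studied over its RefSeq gene body (build mm10) and 120 kb on each side, so that known distal enhancers fell inside the window. Peaks of the 6 libraries of a mark that lay 500 bp or less apart were joined into regions. The windows held 72 of 42536 H3K27ac regions and 73 of 53692 H3K4me3 regions. The study asked how loss of Mettl3, which encodes the methyltransferase subunit of the m6A writer complex, bears on chromatin. It compared 3 genotypes, named in the labels Mettl3_Control, Mettl3_KO1 and Mettl3_KO2 and here called Control, KO1 and KO2, each with 2 libraries for H3K27ac and 2 for H3K4me3. All 3 are C57BL/6 embryonic stem cells that were grown with serum, LIF, CHIR99021 (a GSK3 inhibitor) and PD0325901 (a MEK inhibitor), so the controls carry the same inhibitors as the knockouts. The sources used here do not give how the knockouts were made or whether each is 1 clone. Nothing in the labels says that the 2 libraries of a genotype came from separate cultures, so the p-values rest on a spread between libraries that may be technical only.

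Pou5f1 encodes the POU factor Oct4, Sox2 an HMG-box factor that binds DNA together with Oct4, and Nanog a homeobox factor that stabilises self-renewal. The 3 proteins bind their own and each other's enhancers in mouse embryonic stem cells, and the loci are textbook cases of control by several elements at a distance. H3K27ac lies on active promoters and enhancers, and H3K4me3 on promoters, with lower levels at strong enhancers.

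The promoters are shown because both marks had peaks within 500 bp of each start in every library. Coverage of the printed bases themselves was not computed. The promoters of Sox2 and Nanog also hold an octamer core and a SOX core. Each printed sequence runs from 250 bases before to 50 bases after the most upstream listed start, 5′ to 3′ on the plus strand (RefSeq, GRCm38.p6, the assembly of mm10). Capitals mark 5 motifs searched on both strands: the octamer core TTTGCAT, the SOX core ACAANG, their composite (the octamer core, any base and the SOX core, so it overlaps both), the GC box GGGCGG and the nuclear receptor half-site AGGTCA.
Pou5f1, chr17:35505782-35506081: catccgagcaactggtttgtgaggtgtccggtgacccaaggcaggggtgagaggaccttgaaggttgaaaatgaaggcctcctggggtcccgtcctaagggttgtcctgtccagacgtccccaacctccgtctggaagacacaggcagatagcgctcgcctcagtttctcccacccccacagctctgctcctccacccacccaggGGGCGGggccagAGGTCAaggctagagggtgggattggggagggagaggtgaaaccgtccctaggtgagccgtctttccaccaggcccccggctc
Sox2, chr3:34649745-34650044: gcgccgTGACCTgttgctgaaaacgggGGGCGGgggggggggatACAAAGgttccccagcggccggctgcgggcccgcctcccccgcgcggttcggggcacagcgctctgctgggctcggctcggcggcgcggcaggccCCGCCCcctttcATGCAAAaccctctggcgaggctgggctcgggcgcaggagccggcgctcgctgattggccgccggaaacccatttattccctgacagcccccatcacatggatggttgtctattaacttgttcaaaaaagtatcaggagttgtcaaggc
Nanog, chr6:122707239-122707538: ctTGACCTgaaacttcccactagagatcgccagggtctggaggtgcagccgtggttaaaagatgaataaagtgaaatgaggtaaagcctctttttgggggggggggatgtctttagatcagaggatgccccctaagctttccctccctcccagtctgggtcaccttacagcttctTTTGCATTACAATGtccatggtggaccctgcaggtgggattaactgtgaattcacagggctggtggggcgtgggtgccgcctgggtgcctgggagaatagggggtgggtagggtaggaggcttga
The Nanog promoter holds the composite TTTGCATTACAATG, 75 bases before the start, an arrangement that 2 of 17491 listed promoters hold (0.0114%, the other being that of Astn1). In the Sox2 promoter the octamer core stands on the minus strand 99 bases before the start, away from a SOX core at 206 bases before it, beside 2 GC boxes and 1 half-site. The Pou5f1 promoter holds 1 GC box and 1 half-site and neither the octamer nor the SOX core in these 300 bases. Of all listed promoters 4.17% hold the octamer core, 38.5% the SOX core, 46.3% a GC box and 14.5% a half-site. A match is a match of letters and says nothing of binding.

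Pou5f1 lies on the plus strand at chr17:35506032-35510777, beside the major histocompatibility genes. Its window also holds H2-Q6, H2-Q7 and H2-Q10, whose near-identical copies make aligned reads uncertain, and Tcf19, Cchcr1, Psors1c2 and Cdsn. Sox2 (chr3:34649995-34652461, plus strand) sits inside the long noncoding gene Sox2ot and has no other protein-coding gene in its window. Nanog (chr6:122707489-122714633, plus strand) lies between Dppa3 and Gdf3 upstream, both active in pluripotent cells, and Slc2a3, the glucose transporter GLUT3 gene, downstream.

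H3K27ac lists held 29966 to 65390 peaks covering 14.4 to 37.0 Mb, fewest in Control and most in KO2, and H3K4me3 lists held 66466 to 83628 peaks covering 41.7 to 58.2 Mb, most in Control. Read depth is unknown, and a wider covered length can come with a longer list, so each result is set against all genes or all regions of the same libraries. Covered length and percent of a window or region are measures of extent; a peak's fold enrichment is the authors' value and was read only inside its own list. At the start of Mettl3, where H3K4me3 covered 65.4% and 64.2% of the window in Control, 37.9% and 41.5% in KO1, then 48.0% and 44.1% in KO2, a histone mark is no readout of the loss of Mettl3. Of 10 embryonic stem cell markers 9 carried H3K27ac at the start in every library, with a list mean of 53.8% to 56.3% in Control, 50.6% to 51.1% in KO1 and 75.8% to 75.9% in KO2; the exception, Esrrb, was at 0 for both marks at its most upstream listed start. Markers of other cells were at 0 in all 6 H3K27ac libraries for 6 of 7 fibroblast genes (among them Col1a1, Col1a2 and Thy1), 5 of 5 primitive endoderm genes (Gata4, Gata6, Sox17, Sox7, Foxa2), 3 of 4 trophectoderm genes (Cdx2, Gata3, Elf5) and 2 of 3 neuroectoderm genes (Pax6, Neurog2). Among the others, Eomes (trophectoderm) had 0% and 0% in Control, 8.10% and 0% in KO1, then 15.9% and 13.6% in KO2. Sox1 (neuroectoderm) had 8.92% and Twist1 (fibroblast) 4.67% in KO2 replicate 2, and both were at 0 elsewhere. The highest list mean in any library was 0.668% for the fibroblast, 3.97% for the trophectoderm and 2.97% for the neuroectoderm genes.

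**Figure D1:**
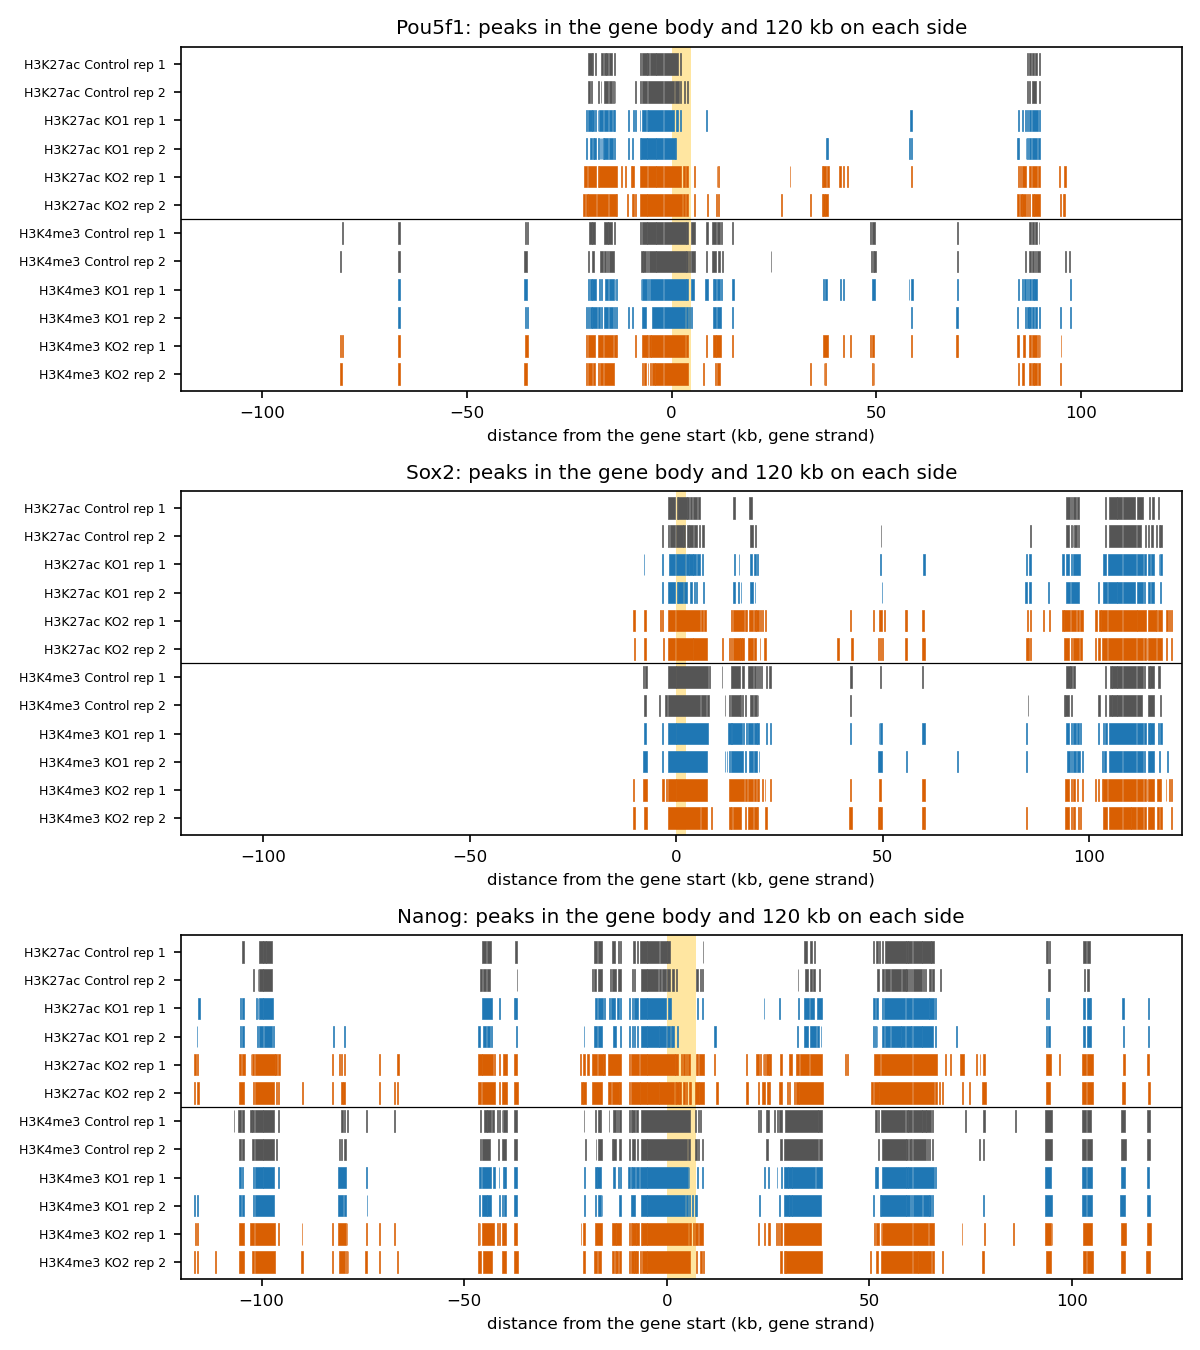
Peaks of the 12 libraries (1 row each, H3K27ac above the line, H3K4me3 below; grey Control, blue KO1, orange KO2) by distance from the gene start in kb; bars are peaks and the yellow band is the gene body. The 3 gene starts carry both marks in all rows, no H3K27ac region lies farther upstream of Sox2 than 10.4 kb, and the orange H3K27ac rows hold the most peaks.

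H3K27ac covered more of all 3 windows in both knockout lines than in Control, and most in KO2, where the Nanog window had over double the Control length. Within 120 kb of Pou5f1 the peaks covered 13.8 and 14.3 kb in the Control libraries, 18.0 and 16.4 kb in KO1, then 26.7 and 27.5 kb in KO2. Around Sox2 they covered 18.7 and 18.9 kb in Control, 25.0 and 21.6 kb in KO1, then 38.5 and 37.7 kb in KO2. Around Nanog the lengths were 32.8 and 31.4 kb in Control, 40.6 and 38.2 kb in KO1, then 70.9 and 70.4 kb in KO2. The 3 genotypes do not overlap in any of the 3 windows, with Control lowest and KO2 highest, an order that 65.9% of 15609 tested gene windows share. KO2 means were 1.93-fold (Pou5f1), 2.02-fold (Sox2) and 2.20-fold (Nanog) the Control means, and KO1 means 1.22-fold, 1.24-fold and 1.23-fold.

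In limma fits of log2(covered bp + 500) over all genes, the mean of both lines exceeded Control by 0.60 ± 0.08 for Pou5f1 (log2, SE; adjusted p = 5.2e-06), 0.65 ± 0.07 for Sox2 (adjusted p = 1.9e-06) and 0.71 ± 0.05 for Nanog (adjusted p = 1.1e-07). Such calls are the rule and not particular to these genes: 91.7% of 15609 tested genes were called higher in this contrast, 46.1% in KO1 alone, 95.8% in KO2 alone and 91.5% in KO2 over KO1. The 3 windows passed in all 4 contrasts. Their increases were smaller than the median of all genes, which was 0.82 for both lines and 1.31 for KO2, against 0.92, 1.00 and 1.13 for Pou5f1, Sox2 and Nanog in KO2. The share of the library's covered H3K27ac length that lies in the windows was lower in the knockouts, going from 0.0969% ± 0.0013 (SD, n = 2) in Control to 0.0929% ± 0.0013 in KO1 and then 0.0748% ± 0.0038 in KO2 for Pou5f1. For Sox2 it went from 0.130% ± 0.001 to 0.126% ± 0.003 and 0.105% ± 0.002, and for Nanog from 0.221% ± 0.010 to 0.213% ± 0.008 and 0.195% ± 0.005. Both KO2 libraries were below both Control libraries in each window, as in 29.9% of all tested windows, while a 2-sided exact permutation test of the share over the 15 assignments of libraries to Control and knockout gave p = 0.133 for Pou5f1 and Sox2 and p = 0.2 for Nanog (0.16, 0.16 and 0.2 adjusted over 6 tests). After quantile normalization, which forces the 6 libraries to 1 distribution, the increases of Pou5f1 and Sox2 turned to -0.14 and -0.01.

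For H3K4me3, while the covered length of the median gene window fell by 0.23 on the log2 scale in the mean of both lines, the differences were positive around these 3 genes, of which Sox2 alone passed the test. The Sox2 window held 27.5 and 26.8 kb of H3K4me3 in Control, 33.3 and 31.5 kb in KO1, then 35.4 and 32.6 kb in KO2, so every knockout library was above both Control libraries, which held for 5.37% of tested windows. The difference was 0.28 ± 0.11 (log2, SE; limma adjusted p = 0.0167) for both lines and 0.32 ± 0.12 (adjusted p = 0.0219) for KO2, in contrasts where 4.97% and 6.73% of 17705 tested genes were called higher. The call was lost when either Control library or either KO1 library was left out (adjusted p between 0.0817 and 0.246) and with 50 kb flanks (0.14, adjusted p = 0.244). An exact permutation test of the Sox2 length gave p = 0.0667, the smallest that 15 assignments allow (0.2 adjusted over 6 tests). The Pou5f1 window held 22.1 and 22.4 kb in Control, 25.4 and 21.9 kb in KO1, then 26.7 and 21.2 kb in KO2, with overlapping groups (0.09 ± 0.11, adjusted p = 0.501). Without KO2 replicate 2 this difference became 0.17 with an adjusted p of 0.0382. The Nanog window held 60.3 and 56.4 kb in Control, 57.7 and 55.2 kb in KO1, then 69.0 and 63.5 kb in KO2 (0.07 ± 0.10, adjusted p = 0.607). As a share of the library's H3K4me3, all 3 windows were higher in each of 4 knockout libraries than in both Control libraries, as were 32.4% of all tested windows: 0.0389% ± 0.0013 in Control, 0.0515% ± 0.0042 in KO1 and 0.0522% ± 0.0018 in KO2 for Pou5f1, 0.0474% ± 0.0002, 0.0706% ± 0.0013 and 0.0744% ± 0.0053 for Sox2, and 0.102% ± 0.002, 0.123% ± 0.001 and 0.145% ± 0.010 for Nanog (exact permutation p = 0.0667 each, 0.133 adjusted over 6 tests). The plot of covered length and share shows both readings side by side.

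**Figure D2:**
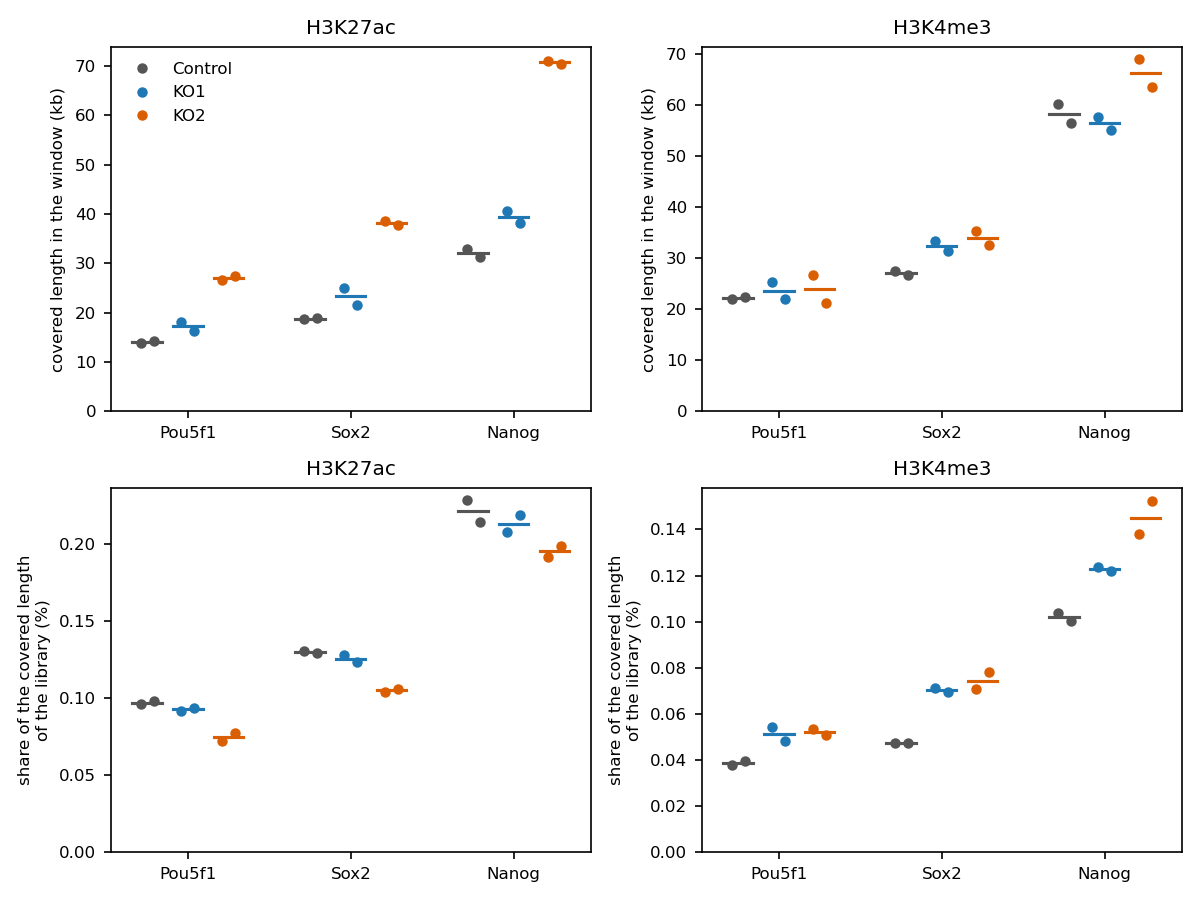
Covered length in kb (top) and share of the library's whole covered length in percent (bottom) in the 3 windows; points are libraries (n = 2 per genotype) and bars their means. H3K27ac length is highest and H3K27ac share lowest in KO2 (70.7 kb and 0.195% at Nanog), while the H3K4me3 share is higher in KO1 and KO2 than in Control at all 3 genes.

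Within 2 kb of the gene starts H3K4me3 was at or near its ceiling in every library. It covered 96.2% to 100% of the bases within 2 kb on each side of the Pou5f1 and Sox2 starts and 100% at Nanog in all 6 libraries, which left Nanog without a value to test. Within 500 bp of the start, H3K4me3 covered 85.4% to 100% at Sox2 and 100% at Pou5f1 and Nanog. The differences at Pou5f1 (-2.12 ± 1.95 percentage points, SE; limma adjusted p = 0.566) and Sox2 (0.33 ± 2.22, adjusted p = 0.954) did not pass. Among 13339 tested promoters 0.847% were called higher and 5.47% lower.

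Within 2 kb of the starts H3K27ac was less complete in Control and close to complete in KO2. At Pou5f1 it covered 85.4% and 85.8% in Control, 76.4% and 72.2% in KO1, then 96.7% and 97.5% in KO2. The groups do not overlap, with KO1 below and KO2 above Control, and the share of all promoters with this order was not computed. The Sox2 start had 86.8% and 82.3% in Control, 87.5% and 79.7% in KO1, then 96.1% and 95.4% in KO2, so that Control and KO1 overlap. Nanog had the least in Control, 56.9% and 69.2%, then 70.8% and 81.8% in KO1, then 97.9% and 94.6% in KO2. Only Nanog passed for the mean of both lines, by 23.2 ± 4.7 percentage points (SE; limma adjusted p = 0.00518), beside 66.3% of 9313 tested promoters called higher; without Control replicate 1 the difference was 17.1 points with an adjusted p of 0.0504. In KO2 alone all 3 passed, by 11.5 points at Pou5f1 (adjusted p = 0.0139), 11.2 at Sox2 (0.0258) and 33.2 at Nanog (0.00085), as did 88.3% of the tested promoters. Under quantile normalization the KO2 differences of Pou5f1 and Sox2 turned to -4.80 and -5.44 points. The KO2 calls of Pou5f1 were lost without either KO2 library (adjusted p = 0.0597 and 0.0708) and within 1 kb on each side (4.72 points, 0.347), and those of Sox2 without either KO2 library (0.127 and 0.109) or without Control replicate 2 (0.111). In KO1 none passed, in a contrast that called 0.247% of promoters higher. At an unadjusted limma p under 0.05, 1 was higher and 1 lower, against 15.5% and 1.07% of all promoters: the differences were -11.3 points at Pou5f1 (adjusted p = 0.18), -0.91 at Sox2 (0.96) and 13.3 at Nanog (0.279). KO2 exceeded KO1 by 22.8, 12.1 and 19.9 points at the 3 starts, each past the threshold, in a contrast that called 76.1% of promoters higher.

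The known enhancers carried both marks in nearly every library, and H3K27ac was most extensive in KO2 at the large distal ones. Their places were set by distance from the start, from textbook knowledge of these loci. The Pou5f1 proximal enhancer (-1500 to -700 bases from the start), which acts mainly in the primed state, was covered to 100% by both marks in all 12 libraries. Coverage at that ceiling cannot show a change in peak height. By the authors' fold enrichment, its H3K27ac peak, which also covers the start, ranked at percentile 99.99 and 99.85 of its own list in Control. The ranks were 93.3 and 91.9 in KO1, then 99.7 and 90.9 in KO2, and this difference was not tested. H3K27ac at the Pou5f1 distal enhancer (-2600 to -1600 bases), the element used in naive cells, was 84.2% and 82.0% in Control, 79.5% and 78.4% in KO1, then 77.3% and 82.6% in KO2. Its strongest H3K27ac peak ranked at percentile 97.7 to 99.99 of its own list by the authors' fold enrichment. H3K4me3 there was 86.2% and 100% in Control, 86.9% and 79.4% in KO1, then 76.3% and 79.0% in KO2. The knockout mean minus Control was -3.65 points for H3K27ac and -12.7 for H3K4me3 (exact permutation p = 0.2 and 0.133). The 4 knockout libraries overlap with Control for both marks. For H3K27ac both KO1 libraries were below both Control libraries, as in 6.03% of tested H3K27ac regions, while KO2 overlapped with Control. For H3K4me3 both KO2 libraries were below both Control libraries, while KO1 overlapped with Control. The share of like elements with these orders was not computed.

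Of the 2 short elements that flank Sox2, SRR2 (3 to 5 kb downstream) was covered to 60.5% to 100% by H3K27ac, with both KO2 libraries, 100% and 94.6%, above the other 4. H3K4me3 covered SRR2 to 100% in all libraries. SRR1 (5 to 3 kb upstream) was the weakest element, with 0% and 8.85% of H3K27ac in Control, 9.50% and 7.55% in KO1, then 24.8% and 7.50% in KO2. The Sox2 control region (from 100 kb downstream on), the distal enhancer that Sox2 needs in mouse embryonic stem cells, showed an order of the genotypes in both marks. H3K27ac covered 53.1% and 53.1% of it in Control, 66.8% and 65.6% in KO1, then 81.0% and 78.8% in KO2. H3K4me3 covered 52.7% and 56.8% in Control, 66.8% and 63.0% in KO1, then 76.0% and 67.7% in KO2. Control, KO1 and KO2 do not overlap for either mark. For H3K27ac, 65.9% of tested gene windows, which are far longer than this element, had this order in covered length. Over tested H3K27ac regions, both KO1 libraries were above both Control libraries in 28.6%, and both KO2 libraries in 82.2%. The share of like elements with this full order was not computed for either mark. The knockout libraries exceeded Control by 19.9 points for H3K27ac (exact permutation p = 0.133) and 13.6 points for H3K4me3 (p = 0.0667); both are 0.55 adjusted over the 22 element tests.

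Around Nanog, the element 5 kb upstream (6 to 4 kb) was covered to 90.6% to 94.4% by H3K27ac and 90.3% to 100% by H3K4me3 without separation of the genotypes. The element 45 kb upstream (50 to 40 kb) held 17.9% and 19.3% of H3K27ac in Control, 25.0% and 19.5% in KO1, then 48.0% and 50.7% in KO2, so KO2 alone stands apart by a wide margin. Both KO2 libraries were also above both Control libraries in 82.2% of all tested H3K27ac regions. H3K4me3 in the element 45 kb upstream was 34.1% and 31.7% in Control, 36.3% and 28.6% in KO1, then 46.8% and 39.9% in KO2. The element 60 kb downstream (55 to 65 kb), inside Slc2a3, held 92.3% and 77.9% of H3K27ac in Control, 94.2% and 88.2% in KO1, then 98.1% and 98.3% in KO2. H3K4me3 on it was 89.4% and 88.4% in Control, 94.3% and 92.2% in KO1, then 96.6% and 96.5% in KO2, a difference of 6.00 points over Control (exact permutation p = 0.0667, 0.55 adjusted).

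**Figure D3:**
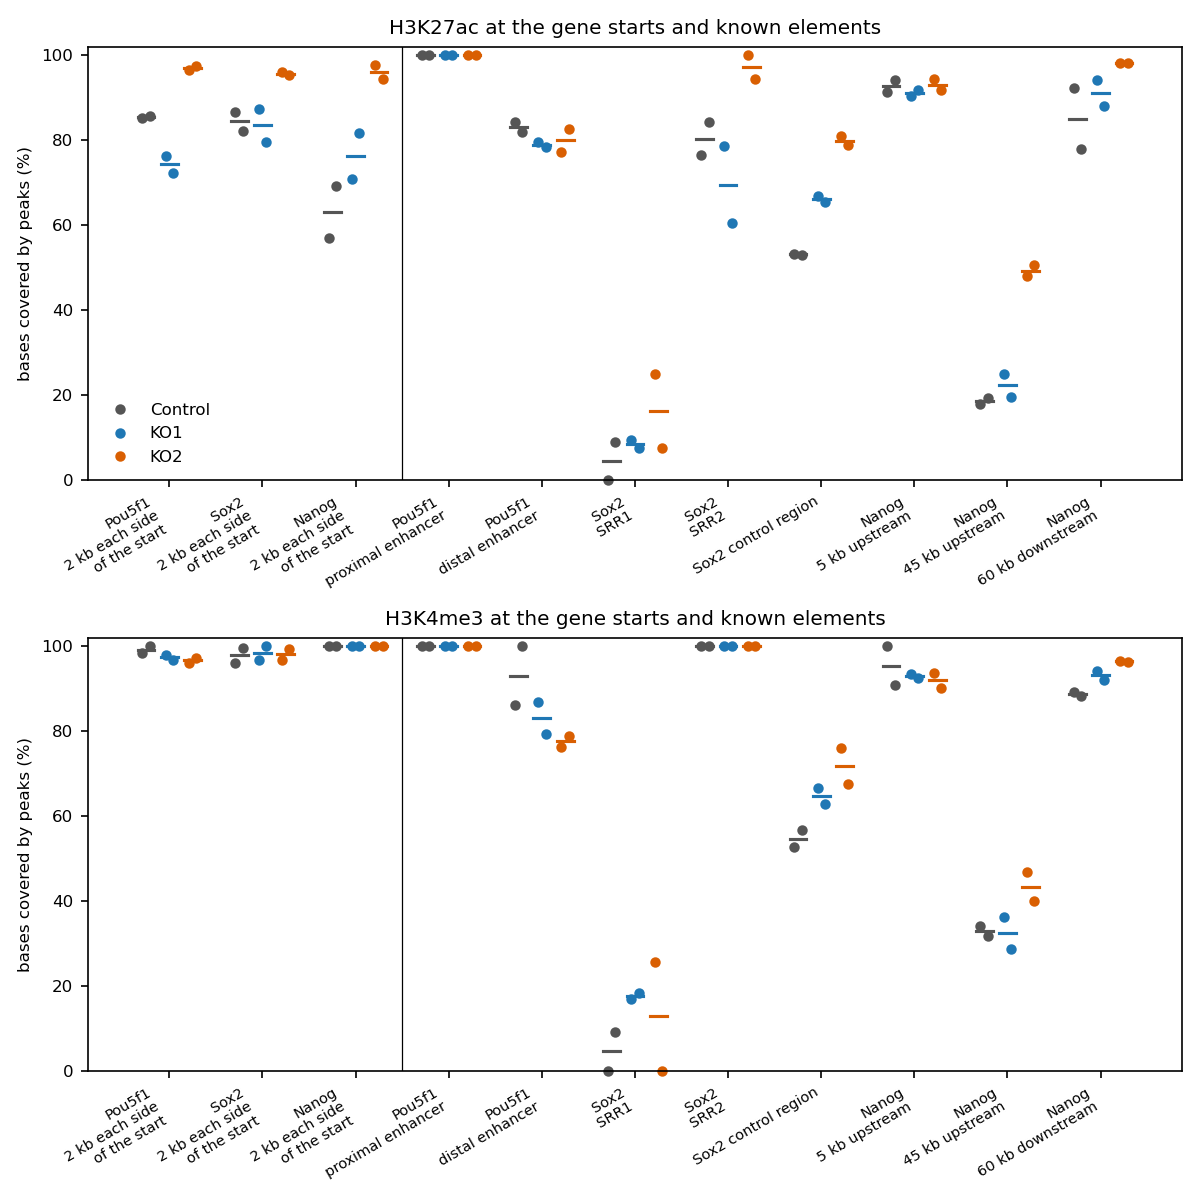
Percent of bases covered by H3K27ac (top) and H3K4me3 (bottom) at the 3 gene starts (left of the line) and 8 enhancer windows; points are libraries (n = 2 per genotype) and bars their means. At the Sox2 control region both marks step up from Control to KO1 to KO2 (53.1% to 79.9% for H3K27ac), while H3K27ac at the Pou5f1 enhancers stays between 77.3% and 100% in all libraries.

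Peak by peak, no H3K27ac region in the 3 windows was lost in the knockouts, and many were added in KO2. Of the 72 regions, 53 had a peak in at least 2 of 6 libraries and entered the fit (10 for Pou5f1, 14 for Sox2, 29 for Nanog). Of these 53, 13 had peaks in both KO2 libraries and in no other, so they entered only through the group where they are high. The counts below include them, and the genome shares come from the same filter. In the mean of both lines 32 of 53 were called higher (6, 8 and 18) and none lower, also at an unadjusted p, with a median difference of 30.7 percentage points; over the genome 44.6% of 29648 regions were called higher, with a median of 27.9 points. KO2 alone had 45 of 53 higher against 68.7% of the genome, KO1 alone 0 of 53 against 0.243% (11 higher and 0 lower at an unadjusted limma p under 0.05, against 11.8% and 1.87%), and KO2 exceeded KO1 in 39 of 53 against 56.3%. The count of 32 was 0 without either Control library, as was that of the whole genome. It was 16 without either KO2 library, where 19.1% and 24.4% of the genome's regions were called, and 7 when every list was cut to the same number of peaks (16.7% of the genome). With equal lists the KO2 count was 19 (45.6% of the genome), and it was 27 and 26 without KO2 replicate 1 and 2 (48.3% and 51.2%). Quantile normalization left none of the 32 calls and turned the difference of 11 named regions negative, among them those over the 3 starts and the Sox2 control region. In 49 of 53 regions both KO2 libraries were above both Control libraries, and in none were both below, against 82.2% and 2.45% of all tested regions. In KO1 this held for 19 and 1, against 28.6% and 6.03%.

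The 72 regions differed in width and in the libraries that held them. The 17 found in all 6 libraries were broad, with a median width of 7155 bp, and held the 3 gene starts. Their median difference in the mean of both lines was 24.3 points, beside 21.8 points for the 11427 such regions of the genome. Another 13 regions were found in both KO2 libraries alone, with a median width of 676 bp and strongest peaks of 5.20 and 4.67 median fold in the 2 KO2 lists, against 13.2 and 14.3 for the broad ones. A further 18 were seen in 1 KO2 library only and were not tested, 3 were in all knockout and no Control libraries, and the other 21 had mixed patterns, with a median width of 1264 bp. The shares of all regions in these KO2-only and knockout-only classes were not computed. Of the 26 regions with a peak in both KO2 libraries and none in Control, 16 (61.5%) met an H3K4me3 peak of a Control library, close to the 63.5% among 10556 such regions of the genome. Seen by bases, H3K4me3 covered 82.9%, 89.5% and 91.1% of the H3K27ac bases shared by both Control libraries around Pou5f1, Sox2 and Nanog (85.6% over the genome). In the reverse direction H3K27ac covered 54.5%, 61.3% and 45.8% of the Control H3K4me3 bases, against 19.9% over the genome, and 81.6%, 89.8% and 84.6% in KO2, against 58.3%.

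At Pou5f1 the broad region over the start and both enhancers (chr17:35498215-35510108) did not pass for both lines: H3K27ac covered 71.3% and 78.6% in Control, 70.6% and 66.8% in KO1, then 91.2% and 94.1% in KO2 (limma adjusted p = 0.246, and 0.0207 in KO2). The next region upstream (chr17:35484408-35492756, intergenic, 17.5 kb from the start) was covered to 43.5% and 38.4% in Control, 61.1% and 53.5% in KO1, then 90.4% and 92.8% in KO2. The 3 genotypes are separate there, and the difference of 33.5 ± 4.4 points passed (limma adjusted p = 0.0158). Over the genome both KO1 libraries were above both Control libraries in 28.6% of tested H3K27ac regions, and both KO2 libraries in 82.2%. A region in Gm41577, 87.3 kb downstream, rose by 33.1 ± 5.6 points from 29.2% and 27.7% in Control (adjusted p = 0.0178). Regions at the starts of Tcf19 and Cchcr1 (0% in Control and KO1, 48.0% and 61.4% in KO2) and of Cdsn, which encodes corneodesmosin (0% in Control, 0% and 22.1% in KO1, 63.9% and 80.9% in KO2), were also called. The region of Tcf19 and Cchcr1 had peaks in KO2 alone, so it entered the fit only through KO2. No H3K27ac region lay farther upstream than 21.6 kb, so none fell on H2-Q6, H2-Q7 or H2-Q10. H3K4me3 regions did stand at those starts, and their values are uncertain for the reason given above.

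For Sox2 the region over the start and SRR2 (chr3:34647972-34657395) was covered to 67.7% and 64.8% in Control, 69.1% and 56.8% in KO1, then 91.6% and 96.6% in KO2 (adjusted p = 0.0941 for both lines, 0.0118 in KO2). The control region (chr3:34751295-34767695, intergenic, 109 kb from the start) gave 52.0% and 56.5% in Control, 69.0% and 65.1% in KO1, then 87.1% and 87.5% in KO2, and passed by 22.9 ± 3.7 points (limma adjusted p = 0.0166), a difference that quantile normalization turned to -3.50 points. Between them, a region inside Sox2ot 17.2 kb downstream held little in Control, 12.9% and 9.65%, a mean of 18.8% in KO1, then 69.1% and 59.0% in KO2 (30.2 ± 6.0 points, adjusted p = 0.0216). Smaller regions of Sox2ot 7.5 and 10.2 kb upstream and of Gm3143 55.6 kb downstream, at 0% in both Control libraries, and 1 intergenic region 85.2 kb downstream make up the other largest calls, at 36.6 to 50.8 points. Those 10.2 kb upstream and in Gm3143 had peaks in KO2 alone, so they entered the fit only through KO2.

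Around Nanog the region over the start (chr6:122698111-122713431) was covered to 48.6% and 50.8% in Control, 55.9% and 59.5% in KO1, then 82.9% and 83.7% in KO2, a difference of 20.8 ± 3.7 points (limma adjusted p = 0.0185) that became -6.65 under quantile normalization. In the element 45 kb upstream the region chr6:122660788-122665110 gave 41.4% and 44.7% in Control, 54.0% and 45.1% in KO1, then 91.8% and 93.6% in KO2 (28.1 ± 4.5 points, adjusted p = 0.0166). Its neighbour centred at -40.5 kb was at 0% in Control and reached 65.8% and 75.5% in KO2 (adjusted p = 0.0172). At Gdf3, a TGF-beta family ligand gene, the region centred at -99.0 kb rose from 40.1% and 44.6% in Control to 51.6% and 49.1% in KO1 and then 86.6% and 79.3% in KO2 (adjusted p = 0.0196). The region inside Slc2a3, 58.5 kb downstream, did not pass for both lines (15.6 ± 5.2 points, limma adjusted p = 0.063). Other large calls were at the start of Apobec1 (54.2 points, adjusted p = 0.0200) and at -37.3 kb (50.5 points, 0.0161). An intergenic region at -70.9 kb, without a Control or KO1 peak, was also called (44.9 points, 0.0181). It entered the fit only through KO2, so its call lends no separate support. Only 3 regions of the 72 had peaks in all 4 knockout libraries and none in Control, and all 3 lie in this window, which holds 37 of the 72. The share of all H3K27ac regions with this pattern was not computed. These 3 regions entered the fit only through the knockout libraries. They are at the start of Foxj2, a forkhead factor gene (0% in Control, 78.7% and 45.2% in KO1, 74.2% and 95.6% in KO2; adjusted p = 0.0171), inside Foxj2 118.9 kb downstream (29.0% and 26.9% in KO1, 70.3% and 58.2% in KO2; 0.0158) and inside Apobec1, an RNA-editing cytidine deaminase gene (29.5% and 12.9% in KO1, 47.5% and 63.4% in KO2; 0.0248).

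Few H3K4me3 regions passed the test. Of 73 regions 56 entered the fit, 1 was called higher for both lines, against 1.43% of 38153 regions of the genome, and none lower, against 6.65%. At an unadjusted limma p under 0.05 these counts were 13 and 0, beside 10.5% and 22.1% of the genome. The median difference of the 56 was 12.1 points, with 38 above 0, where that of the genome was -5.66, and in KO2 alone it was 13.7 against -4.66. The 1 call lies on Dppa3, the gene of the maternal factor Stella (chr6:122626439-122628933, 79.8 kb upstream of Nanog), with 46.1% and 39.7% in Control, 71.3% and 68.2% in KO1, then 77.5% and 76.4% in KO2. The difference was 30.5 ± 4.8 points (limma adjusted p = 0.0381), and the call was lost whichever library was left out. KO2 alone had 5 of 56 higher, against 4.88% of the genome, and 0 when any single library was left out. Each of those fits called 0 regions in the whole genome. A region inside Gm41577, 84.6 kb downstream of Pou5f1, was in all knockout and no Control libraries (45.4% and 49.6% in KO1, 100% and 44.2% in KO2) and did not pass (59.8 ± 17.3 points, adjusted p = 0.089). The share of all H3K4me3 regions with this pattern was not computed. Besides Dppa3, the 5 calls in KO2 were 3 narrow regions, near Mir1897 in the Sox2 window and upstream of Dppa3, and 1 inside Foxj2 (61.7% and 66.7% in Control, 90.7% and 92.8% in KO2). The 3 narrow ones had no Control or KO1 peak, so they entered the fit only through KO2. The 28 regions found in all 6 libraries had a median difference of 4.62 points, while the 20422 such regions of the genome had -5.84. The broad regions over the starts kept near their Control extent at Sox2 (76.5% and 80.5% in Control, 79.9% and 74.9% in KO2) and Nanog (78.3% and 73.9%, then 85.5% and 77.9%). Over Pou5f1 the values were 89.8% and 88.6% in Control, 85.5% and 74.0% in KO1, then 77.7% and 71.4% in KO2, with all knockout libraries below Control (-12.1 ± 5.0 points, limma adjusted p = 0.171). The share of all H3K4me3 regions with this order was not computed. The scatter of regions shows the difference between the marks.

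**Figure D4:**
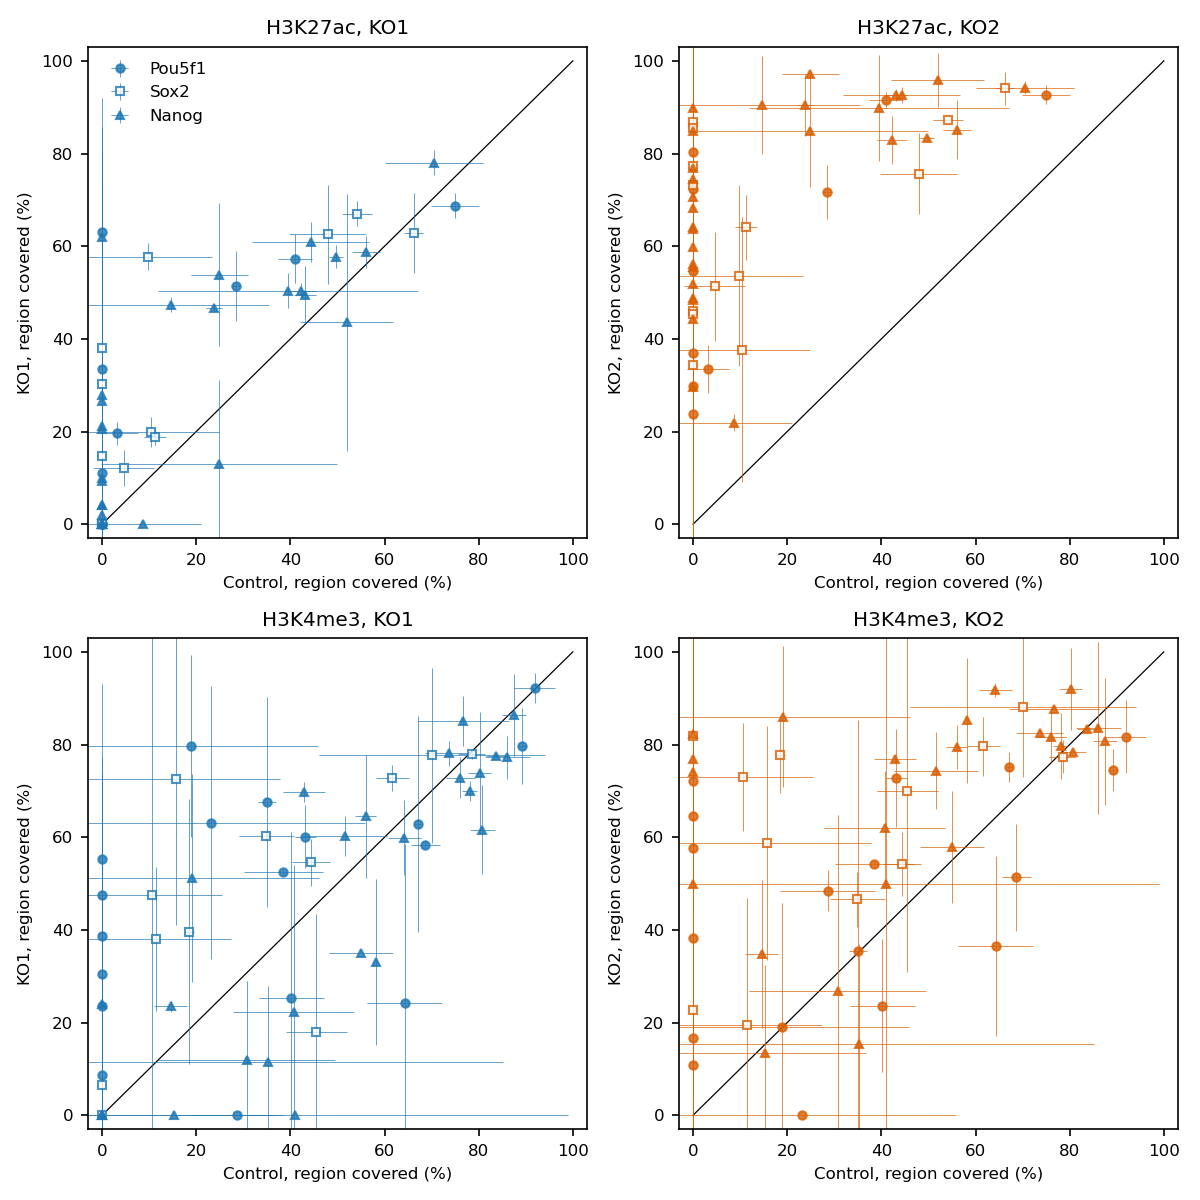
Percent of each tested region covered in Control (x) against KO1 or KO2 (y), for 53 H3K27ac and 56 H3K4me3 regions; points are means of 2 libraries, lines their SD (cut at the axis), and the diagonal marks equal values. H3K27ac points in KO2 lie above the diagonal, many from 0 in Control, whereas H3K4me3 points lie on both sides.

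At the starts of the wider pluripotency network, H3K27ac calls came at about the rate of all promoters. Of 27 listed network genes 25 were tested for H3K27ac at the start; 16 were called higher for both lines (66.3% of all promoters) and 20 in KO2 (88.3%). None was called lower in either contrast by limma, nor at an unadjusted p under 0.05. In KO1 none was called (0.247% higher over all promoters), with 3 higher and 3 lower at an unadjusted p under 0.05, and the median was 1.44 points, beside 2.99 over all. For both lines the median difference was 13.2 points, beside 10.5 points over all tested promoters. Among the largest changes were those at Tfcp2l1, a naive-state factor (36.8% and 39.3% in Control, 64.0% and 48.6% in KO1, 83.5% and 92.1% in KO2; 34.0 points, limma adjusted p = 0.0022) and Dppa4 (32.1 points, adjusted p = 0.0019). Klf4, a Krüppel-like factor, had 42.9% and 40.6% in Control, 29.2% and 34.8% in KO1, then 90.2% and 93.1% in KO2 (20.1 points, limma adjusted p = 0.0038), so KO1 lay below Control and KO2 above. The share of all promoters with this order was not computed. Zfp42, the Rex1 gene, did not pass (-0.18 points, adjusted p = 0.973), nor did Stat3 (-2.86, 0.461) and Lefty2 (-0.44, 0.931), the largest negative values. For H3K4me3 21 of the 27 were tested, with 1 higher (0.847% of all promoters), which was Dppa3 (20.9 points, limma adjusted p = 0.0146), and 1 lower (5.47%), the Nodal antagonist gene Lefty2 (100% and 100% in Control, 100% and 96.3% in KO1, 79.4% and 69.0% in KO2; -13.8 points, 0.0487). In KO2 2 were lower (5.88%), Lefty2 and Lefty1, which encodes a related Nodal antagonist: Lefty1 had 95.7% and 96.0% in Control, 100% and 87.7% in KO1, then 60.3% and 39.1% in KO2 (-46.2 points in KO2, limma adjusted p = 0.0136, and -24.1 for both lines, 0.0564). Dppa3, Lefty2 and Lefty1 are among the 13 network genes without a listed start. Their windows were placed where the gene held most H3K4me3 in these same libraries, so the place was chosen on the values tested.

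By the root mean square difference of promoter coverage over all 12 libraries, the genes most like Pou5f1 were Hmga1 (3.11 points), Rnf125 (3.28) and Cobl (3.45). Sox2 was most like Ier2 (2.55), Hmga1 (2.80) and 2410137M14Rik (3.28), and Nanog was most like Zc3h4 (3.49), Rnaseh2b (5.68) and Zfp148 (6.44). Pou5f1 and Sox2 differed from each other by 4.27 points and from Nanog by 10.2 and 10.7 points, the Nanog start having the lower Control H3K27ac.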

How the data were processed

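Peaks of 12 immunoprecipitated libraries were analysed; the 6 input samples were not used here. Per the submitters' processing notes, the tools named, in no stated order or role, are Bowtie 1.2.2, MACS2, Trimmomatic 0.38 and CASAVA, and the build is mm10. The authors called peaks per library, without pooling. The deposited lists give for each peak a fold enrichment (a ratio over local background by the authors), its −log10 p and its −log10 q, and every peak passes a q of 0.01. Per the labels' protocols, spike-in chromatin was added; its use, and that of the input, in the calling is not stated there. The lists hold no read totals, so depth is unknown and no interval for counting error is given; 2 libraries per genotype and mark limit the precision.

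From the peaks, 3 measures were computed per library: percent of each region covered (a peak in at least 2 of 6 libraries), log2(covered bp + 500) in the gene body with 120 kb on each side (mean of at least 1000 bp), and percent of 2 kb on each side of the most upstream start listed in RefSeq (mean of at least 5%). Of 21883 genes 17491 had a listed start, 3148 were placed at the point inside the gene with most H3K4me3 (13 of the 27 network genes) and 1244 were not placed. Each was fitted over all features with limma 3.58.1 (lmFit, eBayes with a trend; R 4.3.3), all 3 genotypes together, with Benjamini-Hochberg adjustment at 0.05. Neighbouring windows share bases and are not independent. The exact permutation tests use all 15 assignments of 6 libraries to 2 and 4; those of the elements were added to the planned tests. Python 3.11.15, numpy 2.4.6 and pandas 2.3.3 were used. The fits were tested on simulated data, in which changes confined to few regions were poorly recovered by the region fits; the simulation was revised after its first run, which had shuffled the spread across features.

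Pou5f1, Sox2 and Nanog, the lists and the elements were chosen with earlier results of these data known. Regions named were drawn from those at known elements, the 3 most covered per gene and mark, up to 5 called per gene and mark by size for both lines, and those in all knockout and no Control libraries (or the reverse). Not every region of these classes is described. Regions called in KO2 alone were named after their values were seen. Of the network list the 3 largest changes each way, Klf4, Esrrb and Zfp42 are named, apart from 1 that is not reported here, and other genes of it only where a count is small. Genes are like a named one by the smallest root mean square difference. Same-numbered replicates were not paired in the main fits. Alternatives were other merging gaps, filters, scales, pseudocounts and windows, quantile normalization, equal or stricter peak lists, 2 genotypes per fit, a replicate block and leaving out each library.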

Additional observations from a re-analysis of the deposited data

Results flagged for a closer look

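The H3K27ac effects of KO1 and KO2 against the same Control differed by the fits' own KO2 minus KO1 contrast, always with KO2 higher. Promoter coverage differed by 22.8 percentage points at Pou5f1 (limma adjusted p = 0.0011), 12.1 at Sox2 (0.023) and 19.9 at Nanog (0.0113), and 2 of 2 KO2 libraries were above both KO1 libraries at each. Covered length of the gene window differed by 0.64 (Pou5f1), 0.70 (Sox2) and 0.83 (Nanog) on the log2 scale, again with both KO2 libraries above both KO1 libraries. Among the tested H3K27ac regions of the 3 windows 39 differed between the lines, and 13 of those tested had peaks in the KO2 libraries alone. The same contrast called 76.1% of all promoters, 91.5% of all gene windows and 56.3% of all regions higher in KO2, whose peak lists are the longest. The part of list length in these differences was not tested beyond the alternatives given under the processing.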

How the results depend on the processing

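Over 951 alternative values 689 kept their direction and side of the threshold. Quantile normalization changed most. Under it the H3K27ac window differences for both lines became -0.14 (Pou5f1) and -0.0088 (Sox2), in KO2 -0.31 and -0.11, and in KO2 against KO1 -0.32 and -0.20; Nanog kept its sign. The H3K27ac promoter differences became -8.04 (Pou5f1), -4.31 (Sox2) and 10.9 (Nanog, adjusted p = 0.192) points for both lines, -4.80 and -5.44 in KO2 at Pou5f1 and Sox2, and -2.27 at Sox2 in KO2 against KO1. It left 0 of the 32 H3K27ac region calls and turned the differences of 3 Pou5f1 regions (-14.5, -1.52 and -3.99 points at -1.9, 87.2 and -10.0 kb from the start), 5 Sox2 regions (-10.1, -8.54, -3.50, -8.56 and -7.83 at 2.7, -3.5, 109.5, 95.9 and 17.2 kb) and 3 Nanog regions (-6.65, -6.53 and -4.41 at -1.7, 58.5 and -99.0 kb). For H3K4me3 it brought the windows of Pou5f1 (0.41) and Nanog (0.36) past the threshold. As a share of the library the H3K27ac windows went to -0.22, -0.18 and -0.12 (log2; Pou5f1, Sox2, Nanog).

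Leaving out single libraries moved the H3K27ac region count between 0 and 24 and the H3K4me3 region count to 0 each time. It moved the H3K4me3 window of Pou5f1 between 0.0086 and 0.17 (in KO2 between -0.066 and 0.26) and of Sox2 between 0.25 and 0.31, the H3K27ac promoters between -0.93 and 1.16 points (Pou5f1), 17.1 and 29.3 (Nanog) and, in KO1, -4.82 and 3.00 (Sox2), and the H3K4me3 promoter of Sox2 between -1.38 and 2.04. Where a genotype was left with 1 library, it was assumed to vary like the others. Within 1 kb of the start the H3K27ac differences were -1.92 (Pou5f1) and, in KO1, 3.07 points (Sox2); with stricter peaks the latter was 2.31. With 50 kb flanks the H3K4me3 window of Sox2 was 0.14. H3K27ac region calls were 16 with no filter and 7 with equal lists; H3K4me3 region calls were 0 with no filter, equal lists, stricter peaks or the replicate block, 2 with peaks merged only where they touch, and 5 on the log2 scale. The H3K27ac calls in KO2 were 80 with peaks merged only where they touch, from more and smaller regions. The causes were not tested, apart from fewer samples or other features by construction.

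Same-numbered libraries did not deviate together (correlations between -0.008 and 0.059), so the values gave no ground to pair them. Such correlations cannot show whether the libraries were prepared together. The block gave 26 H3K27ac region calls in place of 32 and 0 H3K4me3 calls in place of 1. Over the genome, calls for both lines ranged over the alternatives from 0 to 17284 H3K27ac regions (13480 as reported), 0 to 7073 H3K4me3 regions (3083), 6261 to 16047 (14366) and 4324 to 11772 (8968) windows, and 140 to 6166 (6180) and 0 to 728 (842) promoters, in each pair H3K27ac first. Depth is unknown, coverage near 100% cannot show an increase, and 2 libraries per genotype cannot give an exact p under 0.0667.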
